A study of Mus musculus with 10 samples.

Results

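The 10 genes described here were grouped around the cells that line blood vessels. They are 4 adhesion genes of activated endothelium (Selp, Sele, Icam1 and Vcam1), 5 genes that mark endothelial identity (Pecam1, Cdh5, Vwf, Kdr and Tie1) and Grrp1. Grrp1 was added because it rose evenly and is not used as an endothelial marker. Together they are 10 of the 39179 genes counted and of the 12690 genes tested. The genes were picked with their difference between LLC and Control already known, so that difference is given as a description with no test.

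Gene expression was profiled by RNA sequencing of 1 fast muscle of the shin, the tibialis anterior, from 4 Control mice and 6 mice with tumors grown from Lewis Lung Carcinoma (LLC) cells. This line was derived from a lung tumor of a mouse and is used to model cachexia, the loss of body weight and muscle in cancer. Per the labels all animals were C57BL/6J mice, 10 weeks of age at injection. LLC mice received tumor cells under the skin of both flanks and Control mice received PBS at the same sites, and muscle was taken on day 23. The series design text gives strain C57BL/10, a younger age and day 22 instead, and which is right was not settled. Whole muscle was used, so every value sums over muscle fibres, vessels, blood and connective tissue, and fewer cells of a type cannot be told apart from less RNA per cell. Muscle always holds vessels, so the presence of 30 other endothelial genes, which all passed the filter on low counts, does not show that reads of the 10 came from endothelium. LLC 1 stood apart from the other libraries: the summed level of 8 muscle fibre genes was 89803 CPM there (CPM being the count of a gene scaled to a common library total) against 125585 or more in every other sample, and the mitochondrial share of its counts was 22.0%. Changes of the 10 genes without it, and list counts that moved without it, are given with the results.

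Blood leukocytes leave a vessel in steps. P-selectin (Selp) and E-selectin (Sele) on the endothelium catch passing leukocytes through sugar-bearing ligands, and ICAM-1 (Icam1) and VCAM-1 (Vcam1) then hold them through integrins. PECAM-1 (Pecam1) and VE-cadherin (Cdh5) join neighbouring endothelial cells, von Willebrand factor (Vwf) is stored with P-selectin in Weibel-Palade bodies and binds platelets, and KDR (VEGF receptor-2) and TIE1 are receptor tyrosine kinases of vessel growth and quiescence. Inflammatory cytokines are known to induce the selectins and ICAM-1 in part through NF-kB, a transcription factor.

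Because several of these genes are known targets of NF-kB, the promoters were searched for its 10-letter consensus on both strands. RefSeq promoters (GRCm38.p6) were at hand for 6 of the 10 genes, namely Selp, Sele, Icam1, Kdr, Tie1 and Grrp1. The consensus was matched once each in Sele, Icam1 and Kdr, at 145, 120 and 74 bases before the annotated start, and was not matched in Selp, Tie1 or Grrp1. In the same 250-base window 22.9% of 27025 promoters held a match, and a match of letters is not evidence of binding. Only exact matches were taken, so stretches that depart from the consensus in a letter were neither counted nor marked. A missing match therefore does not show that no site is there. The 4-letter GATA motif occurred at 4 positions in Sele, 1 of which, like 1 GGAA, overlaps the NF-kB match, at 1 position each in Selp, Kdr and Grrp1, and not in Icam1 or Tie1, against 54.1% of all promoters with at least 1. GGAA, the core of ETS sites, was present in all 6 promoters, as in 93.4% of all. The 250 bases before the start are shown for the 4 genes past the threshold defined below and for Icam1, 5′ to 3′ on the strand of the gene, with the NF-kB match in capitals.
Selp, chr1:164115014-164115263, plus strand: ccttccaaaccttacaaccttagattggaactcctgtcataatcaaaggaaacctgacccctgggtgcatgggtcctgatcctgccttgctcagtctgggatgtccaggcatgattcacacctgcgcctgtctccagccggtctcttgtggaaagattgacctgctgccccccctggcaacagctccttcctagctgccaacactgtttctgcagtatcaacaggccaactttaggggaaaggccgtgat
Sele, chr1:164047984-164048233, plus strand: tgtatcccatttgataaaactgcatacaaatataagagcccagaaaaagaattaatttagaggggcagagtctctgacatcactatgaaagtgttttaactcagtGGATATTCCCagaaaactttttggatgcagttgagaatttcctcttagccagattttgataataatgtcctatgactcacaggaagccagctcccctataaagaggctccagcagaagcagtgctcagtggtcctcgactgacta
Icam1, chr9:21015690-21015939, plus strand: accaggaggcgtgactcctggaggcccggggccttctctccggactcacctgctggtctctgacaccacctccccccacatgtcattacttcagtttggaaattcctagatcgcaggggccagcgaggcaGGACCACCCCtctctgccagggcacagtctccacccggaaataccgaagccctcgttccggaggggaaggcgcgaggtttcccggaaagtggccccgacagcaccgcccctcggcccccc
Kdr, chr5:75978456-75978705, minus strand: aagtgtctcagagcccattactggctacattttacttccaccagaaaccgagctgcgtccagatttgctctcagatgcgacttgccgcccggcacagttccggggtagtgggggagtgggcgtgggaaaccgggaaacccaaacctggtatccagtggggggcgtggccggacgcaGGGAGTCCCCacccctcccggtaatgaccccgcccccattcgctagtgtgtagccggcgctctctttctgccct
Grrp1, chr4:134254107-134254356, minus strand: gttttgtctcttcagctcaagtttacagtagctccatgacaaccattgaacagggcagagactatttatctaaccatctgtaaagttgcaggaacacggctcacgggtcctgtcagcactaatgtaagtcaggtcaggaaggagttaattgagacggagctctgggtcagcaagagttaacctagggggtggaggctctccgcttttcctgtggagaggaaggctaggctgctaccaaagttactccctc

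Among the adhesion genes, Selp, Sele and Icam1 were at higher mean levels in LLC and Vcam1 was at a lower one. Selp stood at 0.847, 0.593, 1.03 and 0.767 CPM in the 4 Control samples and at 3.53 (lowest), 5.75 (median) and 6.95 CPM (highest) in the 6 LLC samples. Every LLC sample was above every Control sample, and the gap between the groups was wider than the range of Control. The log2 fold change, LLC over Control, was 2.72 ± 0.26 (SE), or 6.59-fold, and 2.68 without LLC 1.

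Sele was all but undetected in Control muscle. A single read was counted over the 4 Control libraries (0, 0, 0.0541 and 0 CPM) against 71 reads over the 6 LLC libraries, whose levels were 0.282 (lowest), 0.549 (median) and 1.03 CPM (highest). Each LLC library lay above the level of 3 counts, which is 0.148 to 0.174 CPM. The ratio of the summed levels was 48.0, with an exact 95% interval of 8.34 to 1921 that covers counting error only. The fitted log2 fold change of 5.00 ± 0.73 (SE) depends on the prior count, and Sele passed the filter on low counts only through the LLC samples.

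Icam1 was at 1.38, 1.19, 2.70 and 1.31 CPM in Control and at 1.85 (lowest), 3.12 (median) and 3.83 CPM (highest) in LLC. The groups overlapped through Control 3, which exceeded 2 of the 6 LLC samples. The log2 fold change was 0.82 ± 0.28 (SE), and 1.17 without Control 3. Vcam1 went the other way, from 2.38, 1.43, 2.49 and 2.08 CPM in Control to 1.24 (lowest), 1.36 (median) and 1.74 CPM (highest) in LLC. Only 3 of 6 LLC samples were below all Controls, and the log2 fold change was -0.55 ± 0.19 (SE). The 4 adhesion genes thus did not share a direction.

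**Figure D1:**
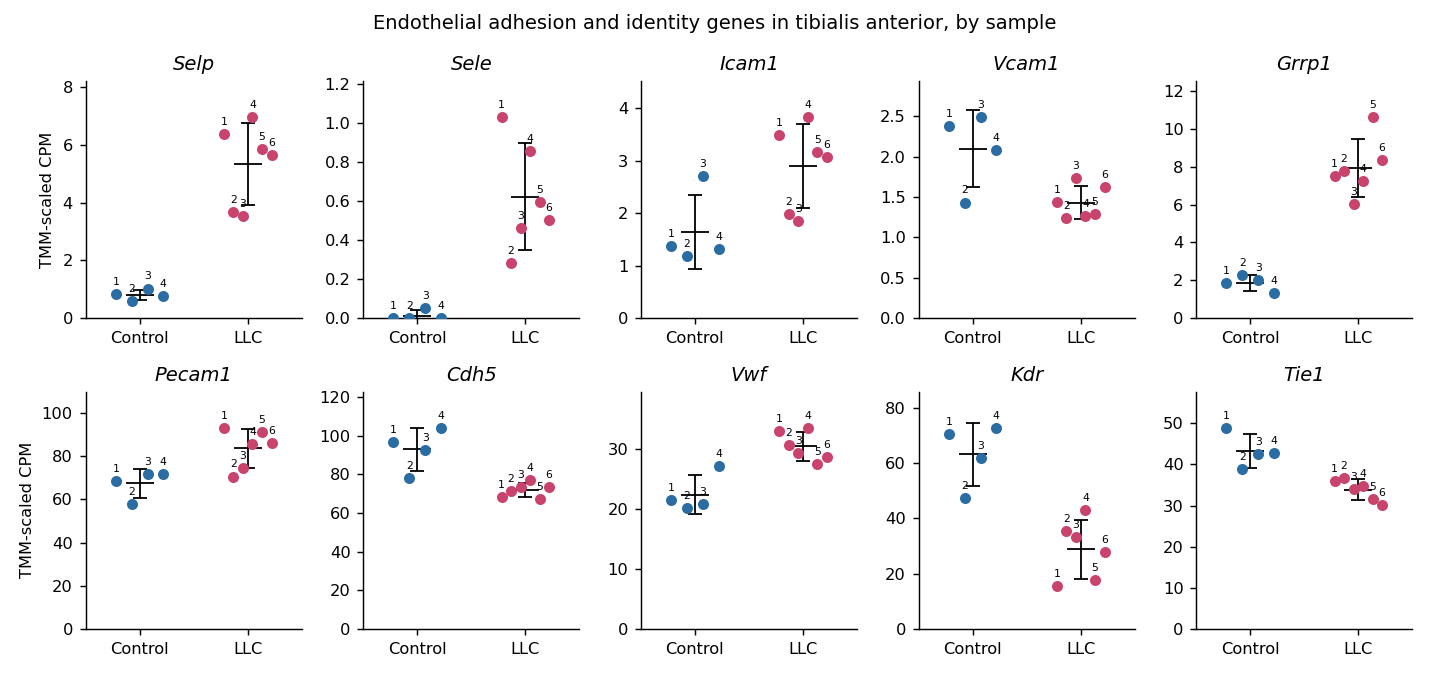
TMM-scaled CPM (y axis, from 0, own scale per gene) of the 10 genes in each sample, with 4 Control points in blue and 6 LLC points in red, numbered by replicate. Black bars are the mean ± SD. Selp, Sele, Vwf and Grrp1 in LLC lie wholly above Control, Cdh5, Kdr and Tie1 lie wholly below, and Icam1, Vcam1 and Pecam1 overlap.

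Within LLC, the read counts of Selp and Icam1 stood in a nearly constant proportion, a pattern noticed after the values were seen. Of 45 pairs of the genes described here, 7 had a Pearson's r over 0.8 within LLC. This pair had the highest, at 0.9997. Selp and Icam1 had 124 and 68 reads in LLC 1, 65 and 35 in LLC 2, 61 and 32 in LLC 3, 138 and 76 in LLC 4, 118 and 64 in LLC 5, and 101 and 55 in LLC 6. Selp therefore made up 64.5% to 65.6% of the reads of both genes in all 6 LLC samples, although the exact 95% binomial interval of a single sample, LLC 3, ran from 55.0% to 75.1%. The samples thus lay closer together than the counting error of each. Agreement closer than counting error cannot be read as a fixed ratio of the 2 RNAs. In Control, Selp made up 27.5% to 38.1%, and no Control sample reached the LLC range. The 2 genes are on different chromosomes.

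**Figure D2:**
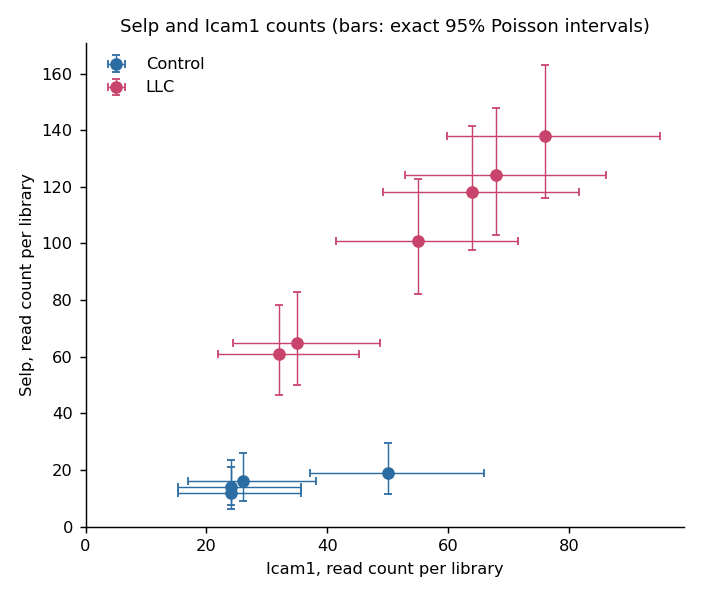
Read counts of Icam1 (x axis) and Selp (y axis) in each library, Control in blue and LLC in red, with exact 95% Poisson intervals as bars. The 6 LLC points lie along 1 line, with Selp at 61 to 138 reads and Icam1 at 32 to 76, and the 4 Control points lie at 12 to 19 Selp reads.

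The identity genes did not move as a block. Pecam1 and Vwf were at higher mean levels in LLC, and Cdh5, Kdr and Tie1 at lower ones. Vwf was at 21.5, 20.1, 20.8 and 27.2 CPM in Control and at 27.5 (lowest), 30.0 (median) and 33.5 CPM (highest) in LLC, with a log2 fold change of 0.45 ± 0.11 (SE). The groups did not overlap, but Control 4 and the lowest LLC sample were nearly equal. Pecam1 was at 68.4, 57.9, 72.0 and 71.6 CPM in Control and at 70.6 (lowest), 86.1 (median) and 93.2 CPM (highest) in LLC, with a log2 fold change of 0.31 ± 0.11 (SE). For Pecam1, 5 of 6 LLC samples were above all Controls.

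Cdh5 was at 96.9, 78.1, 92.6 and 104 CPM in Control and at 67.5 (lowest), 72.4 (median) and 76.9 CPM (highest) in LLC, a log2 fold change of -0.37 ± 0.09 (SE). Tie1 was at 48.9, 38.9, 42.5 and 42.8 CPM in Control and at 30.2 (lowest), 34.4 (median) and 36.7 CPM (highest) in LLC, a log2 fold change of -0.35 ± 0.09 (SE). For both genes all LLC samples were below all Control samples, by a narrow margin. Cdh5 and Tie1 are classical endothelial markers, and both differed from Control by less than 1.5-fold.

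Kdr, the main receptor for VEGF-A on endothelium, had the largest drop of the identity genes. It was at 70.4, 47.4, 62.0 and 72.7 CPM in Control and at 15.7 (lowest), 30.4 (median) and 43.0 CPM (highest) in LLC. The log2 fold change was -1.13 ± 0.26 (SE), a 0.456-fold level, and the level was 0.499-fold without LLC 1. All LLC samples were below all Controls, but they were uneven: Kdr was lowest in LLC 1 and LLC 5, at 15.7 and 17.6 CPM, and at 27.7 to 43.0 CPM in the other 4. The same 2 libraries had the lowest mitochondrial share of counts, 22.0% and 22.9% against 25.8% to 27.9% in the other LLC samples and 28.4% to 30.7% in Control, and the part of this in the Kdr values was not tested.

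Grrp1, a gene whose product is little described, was at 1.85, 2.27, 2.00 and 1.31 CPM in Control and at 6.02 (lowest), 7.65 (median) and 10.6 CPM (highest) in LLC. The lowest LLC sample was above the highest Control sample by more than the whole range of Control. The log2 fold change was 2.08 ± 0.19 (SE), and 2.11 without LLC 1.

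A gene is called past the threshold when it changed by at least 1.5-fold and its adjusted p, from the quasi-likelihood test of edgeR, did not exceed 0.05. By that rule 4 of the 10 genes were past it: Selp, Sele and Grrp1 higher, and Kdr lower. Of all 12690 tested genes 5.63% were past it, 1.65% higher and 3.99% lower. Groups did not overlap for 7 of the 10 genes and for 16.0% of all tested genes. Since the genes were chosen on this contrast, nothing is read from these shares. Kdr missed the threshold when Control 1, Control 3, Control 4 or LLC 6 was left out, with log2 fold changes of -1.08, -1.14, -1.06 and -1.12, and Icam1, which changed by 1.77-fold but missed on the adjusted p, passed when Control 3 was left out. Of the genes that missed, Vcam1 was closest to the fold limit, at 0.684-fold. Sele fell under the filter on low counts in 4 of the 10 fits that leave out 1 sample, LLC 1 among them. Without LLC 1 the log2 fold changes of the genes not past the threshold were 0.78 for Icam1, -0.54 for Vcam1, 0.29 for Pecam1, -0.35 for Cdh5, 0.43 for Vwf and -0.36 for Tie1.

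**Figure D3:**
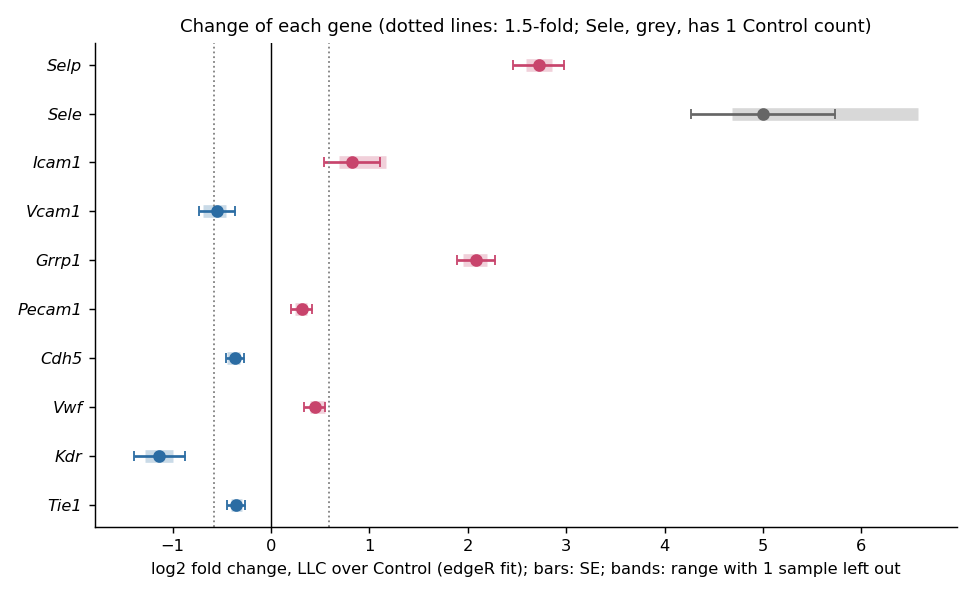
Log2 fold change of each gene, LLC over Control (x axis), with the SE as a bar and the range over fits that leave out 1 sample as a pale band. Dotted lines mark 1.5-fold. Selp (2.72), Grrp1 (2.08) and Kdr (-1.13) lie beyond the lines with their bands, and Sele (grey) rests on 1 Control read.

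Levels can be compared between genes only per length. Per kilobase of exon, Cdh5 was highest in Control at 22.1 ± 2.60 CPM per kb (SD, n = 4), followed by Pecam1 at 10.8 ± 1.06, Tie1 at 8.80 ± 0.841 and Kdr at 6.99 ± 1.27 CPM per kb, the last pair lying within their spread. Grrp1 at 1.46 ± 0.316 and Vwf at 1.39 ± 0.202 CPM per kb did not differ beyond their spread. Icam1 (0.377 ± 0.163), Vcam1 (0.236 ± 0.0536), Selp (0.183 ± 0.0409) and Sele (0.00464 ± 0.00929 CPM per kb) came last, below Vwf beyond their spread. Compared with each other, only Sele lay beyond the spread of its neighbour. In LLC, Cdh5 at 17.1 ± 0.835 and Pecam1 at 13.4 ± 1.45 CPM per kb (SD, n = 6) stayed first, Grrp1 at 6.21 ± 1.20 was level with Tie1 at 6.89 ± 0.511, Kdr stood at 3.19 ± 1.17 and Vwf at 1.90 CPM per kb. Selp at 1.21 ± 0.322 CPM per kb passed Icam1 at 0.665 ± 0.186, with Sele at 0.213 ± 0.0941 and Vcam1 at 0.161 ± 0.0234 CPM per kb.

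To set each gene against an estimate of the endothelial RNA in its own sample, the mean log2 CPM of the 5 identity genes was subtracted. In Control that mean was 5.70 ± 0.17 (SD, n = 4). In LLC it was 5.46 ± 0.13 (SD, n = 6), with 3 of 6 LLC samples below all Controls. Kdr had a log2 fold change of -1.13, and Pecam1, Cdh5, Vwf and Tie1 lay between -0.37 and 0.45. The lower mean in LLC thus rests largely on Kdr, and whether endothelial RNA differed between the groups was not tested. Relative to it, Selp was higher in LLC by 2.78, Sele by 2.77, Grrp1 by 2.27 and Icam1 by 1.04 on the log2 scale, where the prior count of 2 shrinks the difference for Sele most. Vcam1 differed by -0.27. The identity genes are part of the mean they are set against, which draws them toward 0, and differed from it by -0.97 for Kdr, -0.13 for Cdh5, -0.12 for Tie1, 0.54 for Pecam1 and 0.68 for Vwf. The mean of the 4 adhesion genes less that of the 5 identity genes was -6.04 ± 0.31 in Control and -4.46 ± 0.36 in LLC, a difference of 1.58. This difference rests mostly on Selp and Sele, and Sele passed the filter on low counts only through LLC. Since the genes were chosen on this contrast, nothing is read from how far the groups lie apart.

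The 30 other endothelial genes gave a second reference. Their mean log2 CPM was 3.91 ± 0.08 in Control and 3.92 ± 0.09 in LLC, a difference of 0.01. None of the 10 genes is in this list. Relative to it, Selp differed by 2.54, Sele by 2.53, Grrp1 by 2.03, Icam1 by 0.80 and Vcam1 by -0.51. The mean of the adhesion genes differed by 1.34 relative to this list. Of the identity genes, Kdr differed by -1.21, Cdh5 by -0.37 and Tie1 by -0.36, each below all Controls in 6 of 6 LLC samples. Vwf differed by 0.44 and Pecam1 by 0.30, above all Controls in 4 and 6 of 6 LLC samples.

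**Figure D4:**
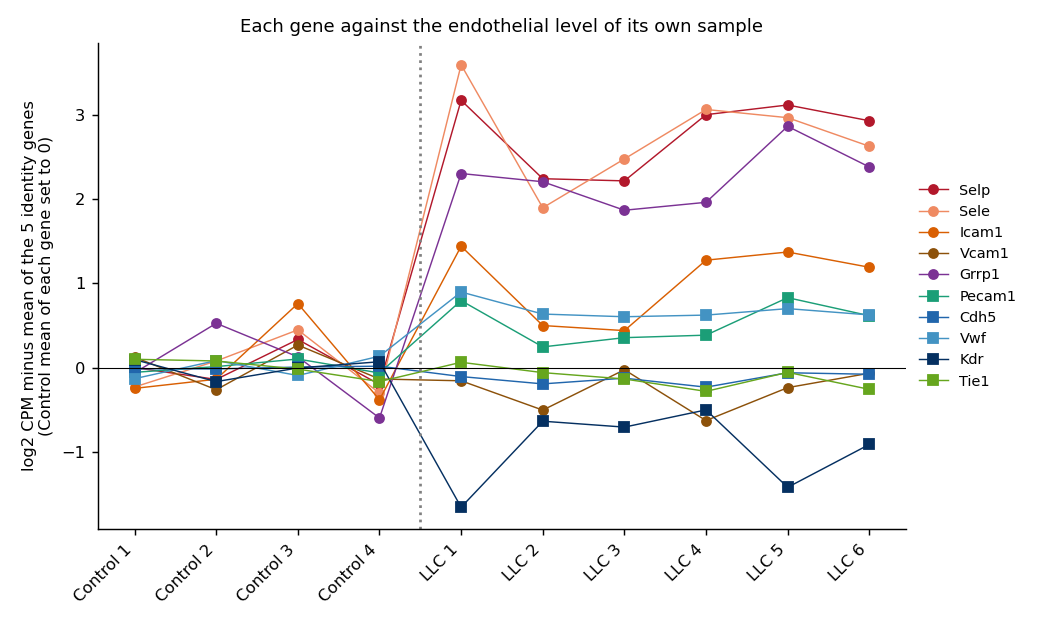
Log2 CPM of each gene less the mean of the 5 identity genes in the same sample (y axis, Control mean of each gene set to 0) over the 10 samples (x axis), identity genes as squares and the rest as circles; lines join the values of 1 gene. Selp, Sele, Grrp1, Pecam1 and Vwf lie above all Controls in all 6 LLC samples, and Kdr and Cdh5 lie below in all 6. The identity genes are drawn toward 0 because the mean contains them, and against 30 other endothelial genes Cdh5 and Tie1 differ by -0.37 and -0.36.

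LLC samples varied more than Control samples for most genes, but not for most of these 10. The median SD of log2 CPM over all tested genes was 0.13 within Control and 0.28 within LLC, and 85.1% of genes had the larger SD in LLC. For the 10 genes that was so for 4, namely Selp, Sele, Pecam1 and Kdr. Cdh5 was among the most even genes of the LLC group, with a coefficient of variation (SD over mean of CPM) of 4.88%, and only 159 of 12690 tested genes had a lower one. Tie1 (7.42%) and Vwf (7.90%) were nearly as even, Grrp1 was at 19.2%, close to the median gene at 19.6%, and Kdr (36.9%) and Sele (44.1%) varied most.

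The genes of the surrounding pathways were described from 11 lists of known endothelial and adhesion genes that hold none of the 10. Together these lists hold 177 genes, of which 150 were tested; 17 were past the threshold higher and 12 lower, or 19.3%, beside 5.63% of all tested genes. The lists name genes by their known roles, and the adjusted p-values below come from the edgeR fit over all tested genes, with the Benjamini-Hochberg method. Some listed genes passed the filter on low counts through 1 group alone, which partly set their direction. Those named below are marked and carry no adjusted p. Of the listed genes named below as past the threshold, Ackr1, Alas2, Angpt2, Aqp7, Bcl3, Ecscr, Hbb-bs, Myct1, Myf5, Pf4, Reln, S1pr1, Sema3g, Tjp1 and Tmem252 missed it in at least 1 of the fits that leave out a sample, with no change of direction, and the others did not in any such fit where they passed the filter on low counts.

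Of the 30 pan-endothelial genes, 2 rose, 1 fell and 27 did not pass, with a median log2 fold change of 0.08 against 0.00 over all tested genes. Their summed level was 574.7 to 661.9 CPM in Control and 580.9 to 660.3 CPM in LLC, so the groups lay over each other. S1pr1, a receptor that keeps the endothelial barrier tight, rose by 0.76 ± 0.17 (adjusted p = 0.0189), and Ecscr, an endothelial surface protein, rose by 0.91 ± 0.20 (adjusted p = 0.0189). Myct1 fell, with a log2 fold change of -0.89 ± 0.18 (adjusted p = 0.0133). Icam2, the ICAM that resting endothelium carries, had a mean of 5.83 ± 0.16 CPM in the 4 Control samples and 5.80 ± 0.95 CPM in the 6 LLC samples (SD).

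Genes of vein, capillary, artery and lymphatic vessel were counted apart. Selectins and the chemokine-transporting receptor Ackr1 are known mostly from venules, and of 11 tested venous genes 5 rose and none fell, with a median log2 fold change of 0.58. Their summed level was 85.0 to 95.2 CPM in Control and 116.0 to 148.1 CPM in LLC, without overlap. Plvap, which forms the diaphragms of endothelial pores, went from 12.8 ± 2.02 to 26.9 ± 2.96 CPM (log2 fold change 1.07 ± 0.12, adjusted p = 0.000531). Lrg1 rose by 1.36 ± 0.17 (adjusted p = 0.000783), Ackr1 by 1.41 ± 0.32 (adjusted p = 0.0221), Tmem252 by 1.44 ± 0.38 (adjusted p = 0.0422) and Bst1 by 2.12 ± 0.41. Bst1 was at 0.0530 to 0.346 CPM in Control and passed the filter on low counts only through LLC. The count of venous rises was thus partly set by the filter. Ackr1 missed the threshold without any 1 of Control 1, Control 2, Control 4 or LLC 5, and between 3 and 6 venous genes rose when 1 sample was left out. Which cells the reads of the venous list came from was not tested.

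Capillary and arterial lists had medians of -0.19 and -0.12. Of 12 capillary genes, Aqp7, a glycerol channel, fell by 0.99 on the log2 scale (SE 0.25, adjusted p = 0.0353) and 11 did not pass. Of 10 tested arterial genes, Sema3g rose by 0.75 ± 0.20 (adjusted p = 0.0420) and Unc5b, a netrin receptor, had a log2 fold change of -1.44 ± 0.19 (adjusted p = 0.000972). Without LLC 1, 2 capillary genes fell and 2 arterial genes rose. Of 6 tested lymphatic genes 3 fell and none rose, with a median of -0.94, and their summed level was 12.5 to 13.8 CPM in Control and 6.44 to 9.98 CPM in LLC. Those that fell were Lyve1 (-2.53 ± 0.40), Ccl21a (-2.08 ± 0.23) and Reln (-1.30 ± 0.27). Lyve1 is also carried by macrophages, and Ccl21a shares sequence with near-identical copies, so its count is uncertain. All 3 passed the filter on low counts through Control alone, so the count of falls and the median were partly set by the filter.

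Ligands and partners of KDR and TIE1 form the next list. Of 22 genes of VEGF, angiopoietin, apelin and Notch signalling, 1 fell and none rose, with a median log2 fold change of -0.31. The one that fell was Angpt2 (-0.78 ± 0.16, adjusted p = 0.0137), an angiopoietin stored in Weibel-Palade bodies. Vegfa, the ligand of KDR, was at 243 to 292 CPM in Control and 102 (lowest), 176 (median) and 239 CPM (highest) in LLC, below all Controls in 6 of 6 samples, but did not pass (-0.64 ± 0.20, adjusted p = 0.0814). Flt1, the other VEGF-A receptor, had a log2 fold change of 0.09 ± 0.13 (adjusted p = 0.660), and Tek, the partner of TIE1, of 0.09 ± 0.11 (adjusted p = 0.588).

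Among 15 tested junction partners of VE-cadherin and PECAM-1, 3 fell and none rose, with a median of -0.13. Jam3 had a log2 fold change of -0.93 ± 0.12 (adjusted p = 0.00103), Afdn of -0.68 ± 0.13 (adjusted p = 0.00835) and Tjp1, the scaffold ZO-1, of -0.59 ± 0.15 (adjusted p = 0.0330). Tjp1 lies at the edge of the 1.5-fold limit. Ctnnb1, the beta-catenin that binds the tail of VE-cadherin, was at -0.16 ± 0.07 (adjusted p = 0.175). These partners are also expressed outside endothelium.

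The Weibel-Palade body and haemostasis list held 15 tested genes, of which 3 fell and none rose, with a median of -0.05. F3, tissue factor, the starter of clotting, went from 2.21 ± 0.608 to 0.502 ± 0.151 CPM (-2.11 ± 0.24) and passed the filter through Control alone. Plat, tissue plasminogen activator, had a log2 fold change of -0.82 ± 0.16 (adjusted p = 0.00888), and Angpt2 is given above. Proc was at 0 in every sample. P-selectin and von Willebrand factor are also made by platelets and their precursors, so 13 platelet genes were looked at: 9 were below the filter, 1 of the 4 tested fell (Pf4, -1.10 ± 0.27, adjusted p = 0.0347) and none rose. Their summed level was 5.83 to 6.35 CPM in Control and 5.16 to 6.90 CPM in LLC.

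Selectin ligands and integrins are the leukocyte side of these contacts. Of 14 tested selectin ligands and leukocyte integrins, 4 rose and none fell, with a median of 0.15. Selplg, the ligand of P-selectin on leukocytes, was at 0.159 to 0.603 CPM in Control and 1.16 (lowest), 1.35 (median) and 2.48 CPM (highest) in LLC (1.88 ± 0.34). The chains of the ICAM-1 receptors were at 1.97 ± 0.37 for Itgam, 1.25 ± 0.23 for Itgb2 and 1.15 ± 0.37 for Itgal, which did not pass. The chains of the VCAM-1 receptor were at -0.21 ± 0.46 for Itga4 (adjusted p = 0.789) and 0.12 ± 0.10 for Itgb1 (adjusted p = 0.440), and both are also made outside leukocytes. Selplg, Itgam, Itgb2 and Itgal passed the filter on low counts through LLC alone, as Bcl3 did among the genes below, so the count of rises here was partly set by the filter.

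Neutrophil markers were also higher in LLC. The summed level of the 16 listed genes was 1.54 to 3.65 CPM in Control and 37.8 to 81.4 CPM in LLC, without overlap. Only 10 of the 16 passed the filter on low counts, all of them through the LLC samples, so that they rose was largely fixed by the filter and no median or test is given for them. Elane was at 0 in every sample. S100a8, a neutrophil alarmin, went from 0 to 0.346 CPM in Control to a median of 13.1 CPM in LLC, Retnlg from 0 to 0.0494 CPM to 1.39 to 4.81 CPM, and Ngp from 0 to 0.0988 CPM to 1.06 to 3.53 CPM. The summed level was highest in LLC 4 and LLC 5 and lowest in LLC 3 and LLC 6, whereas Selp was highest in LLC 4 and LLC 1 and lowest in LLC 3 and LLC 2. The part of neutrophil RNA in the levels of the adhesion genes, of Grrp1 and of the venous list was not tested.

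Cytokine signalling genes rose in part. Of 12 tested receptors and ligands of endothelial activation 4 rose and none fell, with a median of 0.61: Osmr (1.24 ± 0.18, adjusted p = 0.00175), Tnfrsf1b (0.91 ± 0.17, adjusted p = 0.00875), Stat3 (0.74 ± 0.15, adjusted p = 0.0128) and Il1b. Il1b, a cytokine that induces E-selectin, was at 0.0494 to 0.108 CPM in Control, under 3 counts in every library, and at 0.508 to 2.22 CPM in LLC, and it passed the filter only through LLC. Tnf stayed below the filter, at 0 to 0.219 CPM in Control and 0 to 0.151 CPM in LLC. Of 17 tested NF-kB and cytokine response genes 2 rose and none fell, with a median of 0.62. These were Bcl3, an NF-kB cofactor (1.59 ± 0.33), and Lrg1, which the venous list holds too. Nfkbia, the NF-kB inhibitor and target, was at 0.49 ± 0.24 (adjusted p = 0.210), and 8 genes of the list, Ccl2, Cxcl1, Il6 and Ptgs2 among them, were below the filter. Without LLC 1, 4 genes of the NF-kB list rose, and so did 5 each of the activation list and of the selectin ligand and integrin list.

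**Figure D5:**
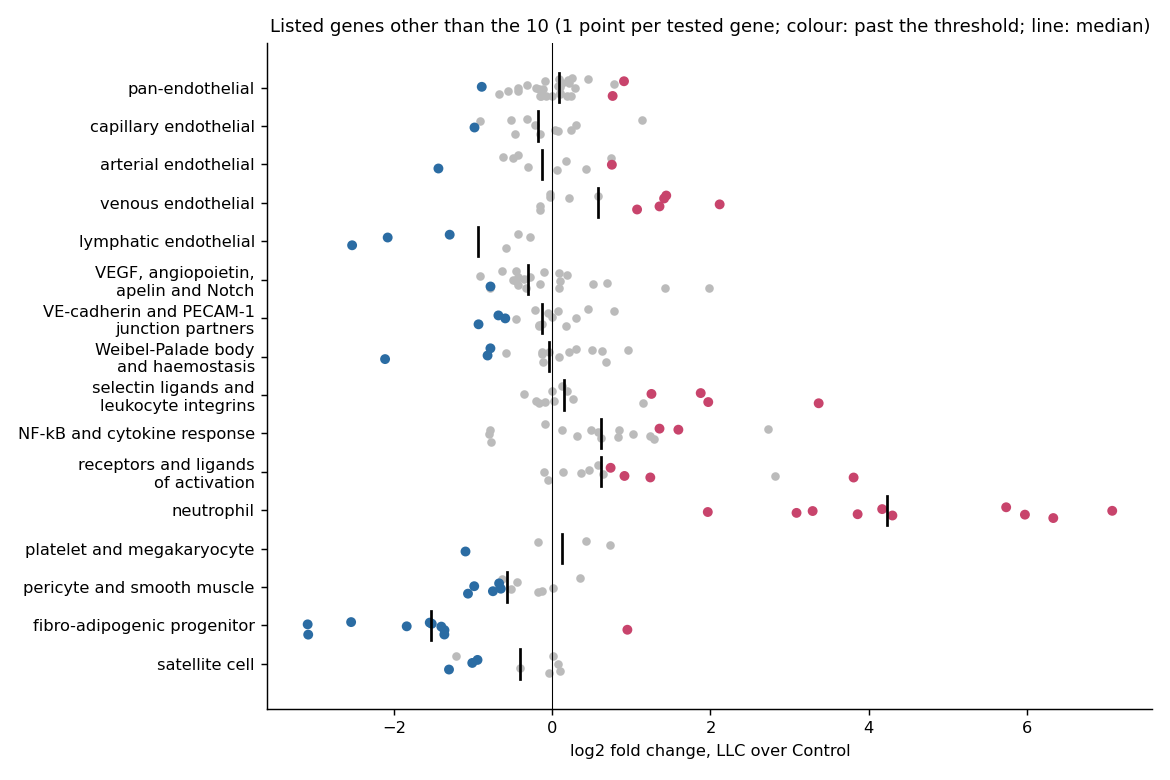
Log2 fold change, LLC over Control (x axis), of every tested gene of the 11 endothelial and adhesion lists and of 5 cell type marker lists (y axis), 1 point per gene, red or blue where past the threshold higher or lower, grey otherwise, with the median of each list as a black line. The venous, NF-kB and activation medians lie at 0.58 to 0.62, the pan-endothelial one at 0.08, and of 16 neutrophil genes only the 10 that the LLC samples carried past the filter on low counts are drawn, all red.

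Markers of the cells next to the endothelium also differed between the groups. Of 12 pericyte and smooth muscle genes 5 fell (6 without LLC 1) and none rose, with a median log2 fold change of -0.58 and a summed level of 742.6 to 778.9 CPM in Control and 481.2 to 726.8 CPM in LLC. Cspg4 (-1.06 ± 0.20, adjusted p = 0.00875), Notch3 (-0.99 ± 0.15, adjusted p = 0.00280) and Pdgfrb (-0.75 ± 0.11, adjusted p = 0.00216) fell most. Of 10 fibro-adipogenic progenitor genes 9 fell and 1, Ly6a, which endothelium also expresses, rose (0.95 ± 0.15, adjusted p = 0.00359); the summed level was 547.5 to 677.6 CPM in Control and 179.7 to 253.5 CPM in LLC. Col3a1 (-3.09 ± 0.39, adjusted p = 0.000866), Col1a1 (-3.08 ± 0.29, adjusted p = 0.000184) and Lum (-2.54 ± 0.34, adjusted p = 0.00115) fell most.

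Red cell, leukocyte and muscle markers complete the list. Of 5 tested erythroid genes 3 rose, namely Alas2 (1.13 ± 0.27, adjusted p = 0.0304), Hbb-bt (0.78 ± 0.14, adjusted p = 0.00530) and Hbb-bs (0.71 ± 0.16, adjusted p = 0.0221), the globins being near-identical copies whose reads may be split. Without LLC 1, 4 of the 5 rose. Their summed level was 58.8 to 83.4 CPM in Control and 88.8 to 144.6 CPM in LLC. Of 10 tested macrophage and pan-leukocyte genes Ptprc, the leukocyte antigen CD45, rose (2.09 ± 0.29, adjusted p = 0.00119), Mrc1 (-1.05 ± 0.17, adjusted p = 0.00335) and Lyve1 fell, and the summed level was 28.4 to 43.7 CPM in Control and 24.2 to 44.5 CPM in LLC. Of 9 tested satellite cell genes Heyl (-1.30 ± 0.13, adjusted p = 0.000197), Pax7 (-1.01 ± 0.18, adjusted p = 0.00626) and Myf5 (-0.94 ± 0.25, adjusted p = 0.0433) fell, with a summed level of 147.6 to 164.8 CPM in Control and 143.6 to 162.6 CPM in LLC. None of 8 muscle fibre genes passed, but without LLC 1, which stands apart in these genes, 2 of 8 were past the threshold lower. The part of these cell types in the levels of the 10 genes was not tested.

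For 3 of the genes the most similar profiles over the 10 samples were looked up among 10376 other genes, by Pearson's r of log2 CPM and as a description. Because the groups lie apart for each gene, r over all samples is high for many genes, and r within the 6 LLC samples is given beside it. Selp was most like Lcn2 (r = 0.98, 0.75 within LLC), Plvap (0.98, 0.73) and Atp8b1 (0.98, 0.90). Grrp1 was most like S100a9 (0.98, 0.58), Ifitm1 (0.97, 0.85) and Lcn2 (0.96, 0.50). Lcn2 and S100a9 are in the neutrophil list and passed the filter on low counts only through LLC. The part of neutrophil RNA in these profiles was not tested. Cdh5 was most like Col4a1 (0.95, 0.91), Col4a2 (0.95, 0.84) and Aoc3 (0.95, 0.92), the first pair being basement membrane collagens. Within LLC, Cdh5 itself ranged only from 67.5 to 76.9 CPM.

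On the mouse genome (mm10, GENCODE M21) Sele and Selp are neighbours on chromosome 1, at chr1:164048234-164057677 and chr1:164115264-164150026, both on the plus strand. Icam1 lies at chr9:21015985-21028817 (plus), Vcam1 at chr3:116109949-116129688 (minus), Pecam1 at chr11:106654217-106750628 (minus), Cdh5 at chr8:104101625-104144511 (plus), Vwf at chr6:125546774-125686679 (plus), Kdr at chr5:75932827-75978458 (minus), Tie1 at chr4:118471191-118490061 (minus) and Grrp1 at chr4:134251110-134254106 (minus). Annotated antisense genes overlap exons of Selp, Icam1 and Vcam1. Both antisense genes at Selp had 0 to 2 reads in any sample, and those at Icam1 and Vcam1 were not analysed here, so reads of the paired strands may be mixed if counting ignored strand.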

How the data were processed

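Total RNA of the tibialis anterior was sequenced from both ends as strand-specific libraries, 1 library per mouse. The authors mapped reads to mm10 with TopHat and counted them with HTSeq at its default settings, per the paper's methods and the submitters' processing notes. The deposited values are raw whole-number counts per Ensembl gene, not normalized. The methods name RefSeq genes, so the annotation release and strand setting were taken as unknown, which matters for overlapping genes.

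Totals were 16693209 to 21303084 counts per sample. Counting intervals and the floor of 3 counts cover counting error only. Replicate pairs differed beyond sampling noise (chi-square per degree of freedom 3.71 or more), so each library counted as 1 replicate. Genes were kept by filterByExpr (count minimum 10), scaled by TMM, and LLC was set against Control with edgeR 4.0.16 in R 4.3.3 (quasi-likelihood test, two-sided, Benjamini-Hochberg adjustment, group the only term). SE came from the F statistic, and the prior count in log2 CPM was 2. DESeq2 1.42.0, which the authors used, and limma 3.58.1 voom were alternatives, with other scalings, filters, a replicate block and each sample left out. The test was checked on simulated counts.

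The 10 genes and all lists were chosen with earlier results of these data known. Named genes are the 10, up to 3 largest rises and 3 largest falls past the threshold in each list, 14 partner genes, and for Selp, Grrp1 and Cdh5 the 3 most similar genes with a mean log2 CPM of at least 1. Of the partner genes 1 is not reported here. Comparing Selp with Icam1 read by read was decided after their values were seen.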

Additional observations from a re-analysis of the deposited data

Results flagged for a closer look

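For each of the 10 genes and both groups, the highest and the lowest sample were set against the others of the group by Dixon's gap test. Of 20 groups searched, 2 held a sample far from the rest, and chance gives about 1. Both were Control 3. Its Icam1 level was 2.70 CPM, while the other 3 Control samples were at 1.19 to 1.38 CPM. Its Sele level was 0.0541 CPM, which is the only read of Sele in Control, the other 3 samples being at 0, so that gap is 1 read wide.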

How the results depend on the processing

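No result of the 10 genes or of the named genes past the threshold changed direction under any alternative run. The number of the 10 genes past the threshold was 4, was 5 with DESeq2 (Icam1 in addition), was 3 with mitochondrial genes left out, with at least 10 counts in every sample and with the replicate block, and lay between 2 and 4 when each sample was left out, with 2 when LLC 6 was left out. The 715 genes past the threshold among all tested became 475 with at least 10 counts in every sample, 1052 with DESeq2, 112 with the replicate block, and 415 to 966 with 1 sample left out, where leaving out any Control sample gave 415 to 438. The 29 listed genes past it became 19 with at least 10 counts in every sample, 5 with the replicate block, and 20 to 35 with 1 sample left out. The block used the replicate number, which belongs to different animals in the groups; same-numbered samples deviated with correlations of -0.08 to 0.13, so the numbers were not taken as pairs. With the block Kdr missed the threshold at a log2 fold change of -1.05. Tjp1 also missed it with DESeq2, with limma voom, with median-of-ratios scaling and without a filter, Myf5 without a filter, Sema3g and Stat3 with limma voom, and Tmem252 with at least 10 counts in every sample. With 1 sample left out, the median log2 fold change of the arterial list lay between -0.14 and 0.16 and that of the Weibel-Palade list between -0.09 and 0.02. The adhesion genes less the identity genes differed by 1.58, by 2.00 with a prior count of 0.5, and by 1.49 to 1.73 with 1 sample left out. Set against the other endothelial genes instead, the adhesion genes differed by 1.34. The number of the 10 genes with the larger SD in LLC, 4, lay between 3 and 5. Depth limits Sele, whose level in Control rests on 1 read, and Tnf and the chemokine genes below the filter. The cause of the changes under these settings was not tested, beyond the fewer genes or samples they use.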
